A study of Caenorhabditis elegans with 2 samples.

Results

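The splicing factor genes of *C. elegans* examined here are the protein-coding genes whose symbols begin with snr-, snrp-, rsp-, uaf-, prp-, sfa-, sftb-, lsm- or rnp- in the WBcel235 annotation. There are 55 of them among 19973 protein-coding genes on the nuclear chromosomes. The rule for membership used symbols alone, so the set can hold genes that act outside splicing. The set itself was chosen with earlier results of these data known. Chromatin was taken from whole L2 larvae of mixed sex in 2 biological replicates, which form 1 group. The worms, all of strain OP355, have the genotype unc-119(tm4063) III and carry the integrated transgene wgIs355, and the tagged factor was precipitated through eGFP, a green fluorescent protein. The labels name the factor in conflicting ways: the source and antibody entries give mdl-1, a Mad-like basic helix-loop-helix gene, and the free-text entry gives ZK337.2. In the lists, the peak of highest signal lay 97 bp upstream of the mdl-1 start, ranking 1 in the pool of both replicates, and each replicate had its own highest peak there. The place of a peak does not settle which name is right, and peaks at ZK337.2 were not examined. All results come from this 1 strain and from whole animals, so cell types cannot be told apart, and the promoter that drives the transgene is not given in the sources used here.

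Splicing removes introns through the spliceosome, which is built on small nuclear ribonucleoproteins (snRNPs). Each of the U1, U2, U4 and U5 RNAs carries a ring of Sm proteins, and the U6 RNA carries a ring of LSm proteins. U1 recognises the 5′ splice site, while U2AF, SF1 and the U2 snRNP recognise the branch point and the 3′ splice site. The U4/U6.U5 tri-snRNP then joins and the PRP19 complex takes part in activation. SR proteins, named for arginine-serine repeats, bind exons and help to choose splice sites. Many worm genes for such general functions sit in operons, where 1 promoter serves a row of genes.

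A peak was counted for a gene when its summit fell in the promoter window, which reaches 1000 bp upstream and 200 bp downstream from any annotated transcript start. Peaks of the optimal IDR set (irreproducible discovery rate, the authors' list of peaks reproduced between replicates) lay in the windows of 14 of the 55 genes (25.5%), beside 6.55% of all protein-coding genes. These 14 genes were served by 12 peaks, because the pairs rsp-1 and rsp-2, and rsp-5 and snr-3, each shared 1 peak. None of the 14 had more than 1 IDR summit. That is the usual case, since all protein-coding genes had 1388 gene and peak pairs at 1308 genes. Given how the set was chosen, the 25.5% is a description and was given no test of the list.

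The sequences around the 8 summits printed here show what lies under the peaks of highest signal, under the only peak with an E-box, and under the peaks with a shared 6-base word. Each is 101 bases of the plus strand of WBcel235 (ce11), from RefSeq's genome sequence, centred on the summit. Capitals mark CACGTG, the E-box to which dimers of Mad and Max proteins bind, and TGCGTC or its reverse complement GACGCA. The windows lie at chrV:11980020-11980120 for snr-4, chrIII:11825783-11825883 for rsp-8, chrIV:8687928-8688028 for snrp-3, chrII:11453170-11453270 for rsp-1 and rsp-2, chrIV:7791356-7791456 for rsp-6, chrIV:17087616-17087716 for snr-1, chrIII:9521853-9521953 for prp-40 and chrIV:10933241-10933341 for lsm-7.
snr-4: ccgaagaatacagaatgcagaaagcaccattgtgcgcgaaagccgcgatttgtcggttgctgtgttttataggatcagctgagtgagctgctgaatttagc
rsp-8: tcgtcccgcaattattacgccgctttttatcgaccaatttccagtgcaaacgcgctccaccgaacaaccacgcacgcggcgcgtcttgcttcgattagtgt
snrp-3: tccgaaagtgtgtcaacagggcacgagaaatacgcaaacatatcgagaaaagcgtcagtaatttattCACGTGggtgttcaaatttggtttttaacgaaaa
rsp-1 and rsp-2: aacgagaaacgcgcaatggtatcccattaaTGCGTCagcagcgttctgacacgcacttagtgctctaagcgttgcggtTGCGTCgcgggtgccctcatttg
rsp-6: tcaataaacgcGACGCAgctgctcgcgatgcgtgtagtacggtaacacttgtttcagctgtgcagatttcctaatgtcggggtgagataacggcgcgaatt
snr-1: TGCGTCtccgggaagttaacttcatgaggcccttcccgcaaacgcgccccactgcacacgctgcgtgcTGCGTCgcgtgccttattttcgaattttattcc
prp-40: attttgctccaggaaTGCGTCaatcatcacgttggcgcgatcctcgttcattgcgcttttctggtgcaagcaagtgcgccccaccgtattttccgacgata
lsm-7: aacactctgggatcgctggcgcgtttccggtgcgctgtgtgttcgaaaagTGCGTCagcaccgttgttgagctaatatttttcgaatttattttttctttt

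CACGTG, read on either strand within 50 bp of the summit, was present at 1 of the 12 peaks, that of snrp-3, where its middle lay 19 bp to the right of the summit on the plus strand. All IDR peaks held it at 17.2%, and IDR peaks in promoter windows at 16%. Its share over windows 500 bp to either side of the IDR summits was 2.07%. GAGAGA was absent from all 12 windows, against 32.2% of all IDR peaks and 29.8% of those in promoter windows. CTGCGTCT was absent as well, against 12.2% and 12.9%. GGGCGG, the GC box, was found at 1 of the 12, that of prp-19, and at 5.28% of all IDR peaks. With only 12 windows, 1 more or 1 fewer window moves a share by 8.33 percentage points.

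TGCGTC, the core of CTGCGTCT, was chosen after the sequences had been read. It lay within 50 bp of 5 of the 12 summits (41.7%), those of rsp-1 and rsp-2, rsp-6, snr-1, prp-40 and lsm-7, with 2 copies each at snr-1 and at rsp-1 and rsp-2. Of all IDR peaks 17.7% held it, of those in promoter windows 20.6%, and of the flanking windows of all IDR peaks 2%. None of the 24 flanking windows of the 12 peaks held it. Since the word was picked from these windows, its share in them supports nothing. Bases G and C made up a median of 51% of the 12 windows (38.6% at snrp-3 to 56.4% at snr-1), against 48.5% for all IDR peaks in promoter windows and 41.1% in the flanks of the 12.

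Across the whole promoter window of the outermost start, CACGTG was found in 1 of the 14 genes with an IDR summit, in 4 of the 41 without one and in 18.4% of all protein-coding genes. TGCGTC was found in 9 of the 14, in 14 of the 41 (34.1%) and in 25% of all genes. The windows of the 14 contain the summit sequences from which the word was picked, so its count in them supports nothing either. GAGAGA was found in 6 of the 14, in 21 of the 41 and in 50.9% of all genes, so its absence concerned the sequence at the summits and not the wider window.

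Among the role groups, the Sm core genes encode the 7 proteins of the ring around each snRNA. IDR peaks lay at 3 of the 7, beside 6.55% of all protein-coding genes. The 3 are snr-4, snr-1 and snr-3, which encode Sm D2, Sm D3 and Sm D1. The genes for Sm B (snr-2), Sm E (snr-6), Sm F (snr-5) and Sm G (snr-7) had none. The snr-4 peak (WBGene00004917; V, 11979975 to 11980114) had the highest signal of all member peaks, 94.1 in the pool, 41 in replicate 1 and 57.9 in replicate 2. It ranked 408 in the IDR set, 345 in replicate 1 and 431 in replicate 2, so both libraries placed it high. Its summit lay 347 bp upstream of the snr-4 start, inside an exon of the non-coding gene C52E4.14 and 48 bp upstream of the start of an snRNA gene on the opposite strand to snr-4 (WBGene00014291). Which of these starts the peak belongs to cannot be told from position.

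The snr-1 peak (WBGene00004914; IV, 17087478 to 17087853) had a signal of 59.6, with 31.3 in replicate 1 and 27.9 in replicate 2. It ranked 532 and 1376 in the replicates, 383 bp upstream of snr-1 and 228 bp upstream of snx-13, its head-to-head neighbour. The peak shared by snr-3 (WBGene00004916) and rsp-5 (WBGene00004702; II, 6489796 to 6490171) had a signal of 41.7, with 12.2 in replicate 1 and 28.5 in replicate 2. It lay between these genes, 223 bp upstream of snr-3 and 181 bp upstream of rsp-5, which ties an Sm core gene and an SR protein gene to 1 summit. Its rank was 1334 in replicate 2 and 2411 in replicate 1, which is past the 2103 peaks of the IDR set. Among the other Sm genes, snr-6 had the highest pooled signal of all members without an IDR peak, 26.3, with 7.86 in replicate 1 and 14.6 in replicate 2. The lowest signal in the IDR set was 32.5, so snr-6 was the nearest below it and lsm-7, at 33.1, the nearest above.

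Of the SR protein genes, 5 of 8 had an IDR peak (62.5%), the highest count and share of any role group here, beside 6.55% of all protein-coding genes. The groups were assigned with the peaks known. The count holds shared peaks: rsp-1 and rsp-2 have 1 between them, and that of rsp-5 also counts for snr-3 in the Sm core. With nearest starts only rsp-2 was lost, and at peaks in both top lists rsp-5 was lost. The rsp-8 peak (WBGene00004705; III, 11825645 to 11826020) had a signal of 89.4, with 27.3 in replicate 1 and 61.3 in replicate 2, and ranked 665 and 387 there. Its summit lay 585 bp upstream of rsp-8 and in the window of no other protein-coding gene. The peak between rsp-1 (WBGene00004698) and rsp-2 (WBGene00004699; II, 11453032 to 11453407), which are transcribed away from each other, had a signal of 78.9, with 31.2 in replicate 1 and 45.4 in replicate 2. It lay 142 bp upstream of rsp-1 and 265 bp upstream of rsp-2, and the replicates ranked it 538 and 642. The rsp-6 peak (WBGene00004703; IV, 7791218 to 7791593) had a signal of 60.9, with 30.8 in replicate 1 and 31.9 in replicate 2, and lay 177 bp upstream. By rank it was higher in replicate 1 (547) than in replicate 2 (1113).

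The remaining SR genes differed from each other in the weaker lists. The rsp-7 window had a pooled signal of 18.9, with 9.84 in replicate 1 and 7.75 in replicate 2. The rsp-3 window, of the worm counterpart of SRSF1, had 15.1, with 5.62 and 12. No list had a summit in the window of rsp-4, the counterpart of SRSF2.

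**Figure D1:**
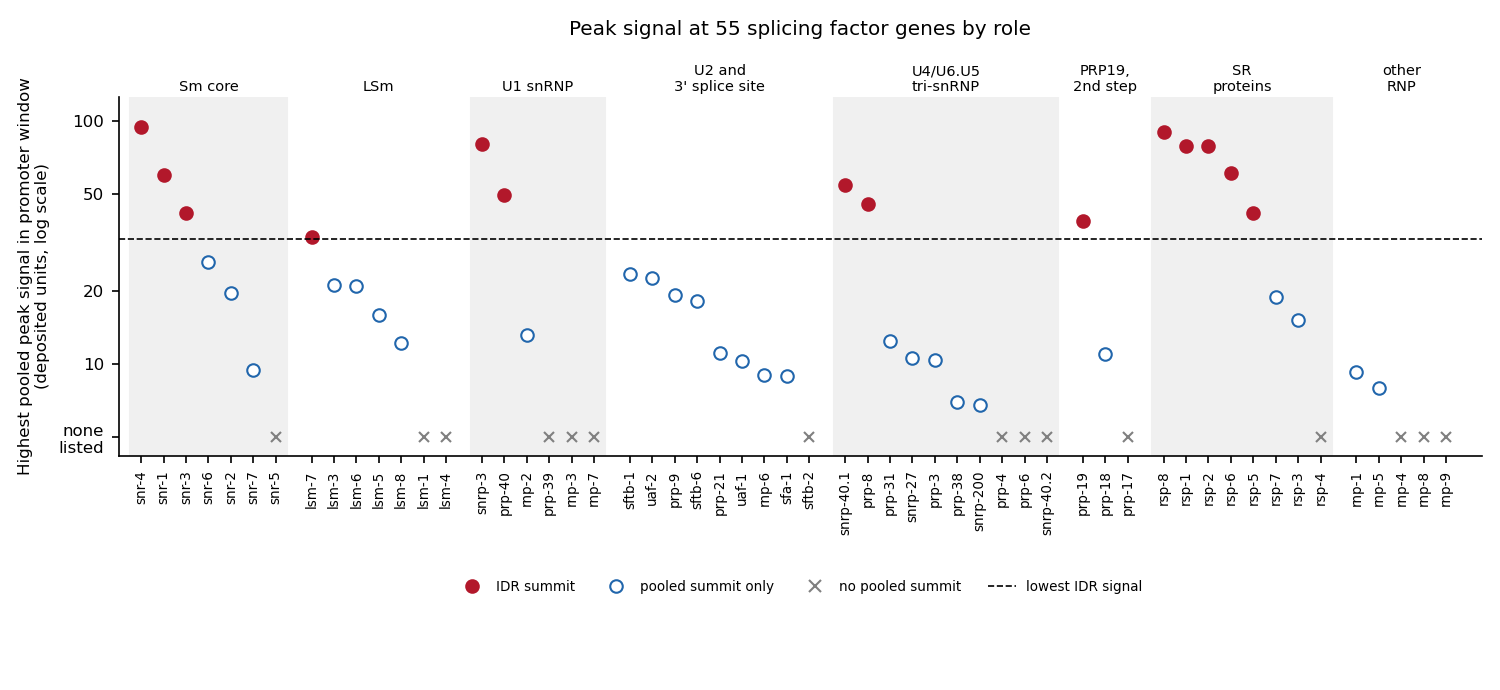
Highest pooled peak signal in the promoter window of each of the 55 genes, grouped by role (log axis, deposited units; crosses on the lowest line mark genes with no pooled summit). The 14 filled points are genes with an IDR summit, from 33.1 at lsm-7 to 94.1 at snr-4, and the dashed line is the lowest IDR signal, 32.5.

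Proteins of the U1 snRNP and its partners had 2 of 6 genes with an IDR peak, beside 6.55% of all protein-coding genes. The snrp-3 gene encodes the U1-C protein, which helps U1 to hold the 5′ splice site. Its peak (WBGene00017238; IV, 8687945 to 8688052), 168 bp upstream and the one with CACGTG, had a signal of 80.1, with 15.2 in replicate 1 and 63.2 in replicate 2. The replicates placed it furthest apart among the peaks in both top lists, at rank 1736 in replicate 1 and 374 in replicate 2. The prp-40 gene encodes a WW domain protein that in yeast associates with U1. Its peak (WBGene00014218; III, 9521715 to 9522090) had a signal of 49.5, with 20.5 and 30 in replicates 1 and 2, and lay 172 bp upstream of prp-40 and 443 bp upstream of clu-1. The U1-70K gene rnp-7 had no summit in its window in any list, and neither had prp-39. The nearest IDR summit to rnp-7 lay 1378 bp upstream, at syf-2, which ends 4 bp before rnp-7 begins on the same strand.

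Of the U4/U6.U5 tri-snRNP genes, 2 of 10 had an IDR peak, beside 6.55% of all protein-coding genes, and both encode U5 proteins. The snrp-40.1 gene encodes the U5 40 kDa protein and lies on X. Its peak (WBGene00008586; X, 11299685 to 11300060) had a signal of 54.3, with 24.3 in replicate 1 and 31.9 in replicate 2, and was the closest to its gene, 89 bp upstream. It also lay 384 bp upstream of F08G12.3. Its related gene snrp-40.2 had a summit only in the relaxed list of replicate 1. The prp-8 gene encodes the large U5 protein at the centre of the spliceosome. Its peak (WBGene00004187; III, 8163808 to 8164183) had a signal of 45.5, with 17.2 and 30.9 in replicates 1 and 2, and lay 377 bp upstream of prp-8 and 613 bp upstream of bath-42. The helicase gene snrp-200 had a pooled signal of 6.79, the lowest of all members with a pooled summit.

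The PRP19 and second-step group had 1 of 3 genes with an IDR peak, beside 6.55% of all protein-coding genes. The prp-19 gene encodes a ubiquitin ligase of the spliceosome. Its summit (WBGene00020423; III, 5172485 to 5172860) had a signal of 38.6, with 18.4 in replicate 1 and 18.9 in replicate 2, and was the farthest from its gene, 628 bp upstream. It lay 47 bp upstream of K10D2.5 and 766 bp upstream of emb-1. Among the LSm genes, 1 of 7 had an IDR peak, beside the same 6.55%. In groups this small, 1 gene is near that share. That gene and prp-19 both lost their summit with nearest starts only. The LSm peak was that of lsm-7 (WBGene00003081; IV, 10933103 to 10933478), with a signal of 33.1, 9.39 in replicate 1 and 20.1 in replicate 2. At rank 2054 of 2103 it was the weakest member peak, and its summit lay 211 bp upstream of lsm-7 and 88 bp upstream of dnc-1. The IDR summit nearest to lsm-6, with a signal of 50.1, lay 555 bp downstream of its start, past the window and past the 3′ end of the gene.

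The U2 and 3′ splice site group had 0 of 9 genes with an IDR peak, beside 6.55% of all protein-coding genes. With only 9 genes, 0 is near that share. A pooled summit lay at 8 of the 9, beside 72.7% of the 55 members and 41.9% of all genes. They include uaf-1 and uaf-2, the subunits of U2AF, sfa-1, the branch point protein SF1, and sftb-1, the SF3B1 gene. Pooled signal was 23.5 at sftb-1, with 9.87 in replicate 1 and 17.3 in replicate 2. These are the highest summits of each list, and they are not 1 shared summit. They lay 780 bp upstream in the pool, 860 in replicate 1 and 461 in replicate 2. At uaf-2 the pooled signal was 22.6, with 5.2 and 12.2. Its summits lay 150 bp upstream in the pool and 318 and 147 in replicates 1 and 2. The pooled signal was 19.2 at prp-9 and 18.1 at sftb-6, both of which encode parts of the U2 snRNP, and 10.3 at uaf-1. None of these summits is part of the IDR set. The 5 remaining rnp- genes, among them rnp-4 of the exon junction complex, had 0 IDR peaks and 2 pooled summits, a pooled share near that of all genes.

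**Figure D2:**
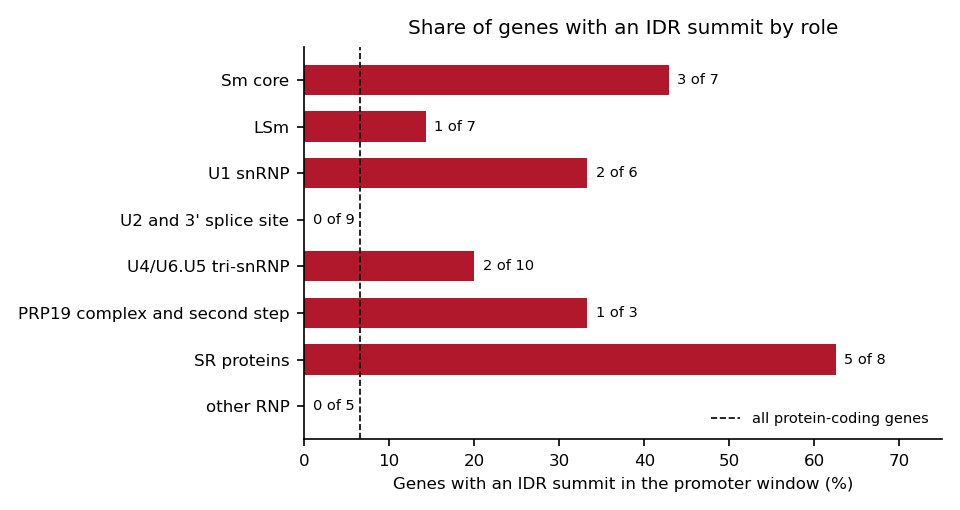
Share of genes in each role group with an IDR summit in the promoter window (bars, %, with the count beside each); the dashed line is the 6.55% of all protein-coding genes. SR protein genes had 5 of 8 and Sm core genes 3 of 7, with the peak of rsp-5 and snr-3 counted in both groups. The U2 and 3′ splice site group had 0 of 9, which for so few genes is near the dashed line. The role groups are small and were assigned from textbook roles with the peaks known.

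Below the IDR set, 26 of the 41 members without an IDR summit had a pooled relaxed summit (63.4%), against 37.8% of all genes without one. In all 40 of 55 members (72.7%) had a pooled summit, beside 41.9% of all protein-coding genes. In the relaxed lists of the replicates 39 members had a summit in each, beside 42.2% of all genes in replicate 1 and 42.7% in replicate 2. Pooled signal of these 26 ran from 6.79 to 26.3 with a median of 12.3, beside a median of 10.7 over the 7061 genes in the same position. At lsm-3 it was 21, with 14.7 in replicate 2 and no summit in replicate 1. At lsm-6 it was 21 as well, with 13.7 in replicate 1 and 9.93 in replicate 2. At snr-2 it was 19.5, with 7.01 and 10.1, and at lsm-5 it was 15.9, with 3.57 in replicate 1 and no summit in replicate 2. Each value for members below the IDR set is the highest of its own list, so the summits can lie apart. The snr-2 summits lay 190 bp upstream in the pool, 367 in replicate 1 and 342 in replicate 2.

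Of the 15 members without a pooled summit, 7 had none in the replicate lists either: lsm-4, prp-4, prp-39, rnp-4, rnp-7, rnp-9 and rsp-4. Summits were listed only in replicate 1 for 4 (lsm-1, rnp-3, snr-5 and snrp-40.2), only in replicate 2 for 2 (rnp-8 and sftb-2), and in both replicates but not in the pool for 2 (prp-6 and prp-17). In all 48 of the 55 had a summit in at least 1 of the 3 relaxed lists, beside 60.7% of all genes. These lists hold peaks together with background by the authors' own description, so a summit found there alone was not counted as a bound site. Of pooled peaks with a deposited −log10 q-value of at least 2, a summit lay in the window of 23 members, beside 13.3% of all genes.

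To compare the replicates, each list was shortened to its 2103 peaks of highest signal. In each shortened list a summit lay in the window of 12 members, beside 6.36% of all genes in replicate 1 and 6.46% in replicate 2. Of the 12 member IDR peaks, 9 overlapped such a peak in both replicates, beside 68.9% of all IDR peaks and 69.8% of those in promoter windows. Those 9 peaks lay at 10 members, beside 4.57% of all genes. The peak of rsp-5 and snr-3 was outside the list of replicate 1, that of prp-19 outside the list of replicate 2, and that of lsm-7 outside both. All 12 were within the 5000 highest peaks of each replicate. Summits of the replicates lay a median of 21 bp apart at the 12 peaks (4 at snr-1 to 82 at snrp-40.1), against 31 bp over 2092 IDR peaks. Spearman's rho between the signals of the replicates was 0.35 over the 12 peaks and 0.637 over the 2092, a description only, since the points share the libraries and 12 is few.

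**Figure D3:**
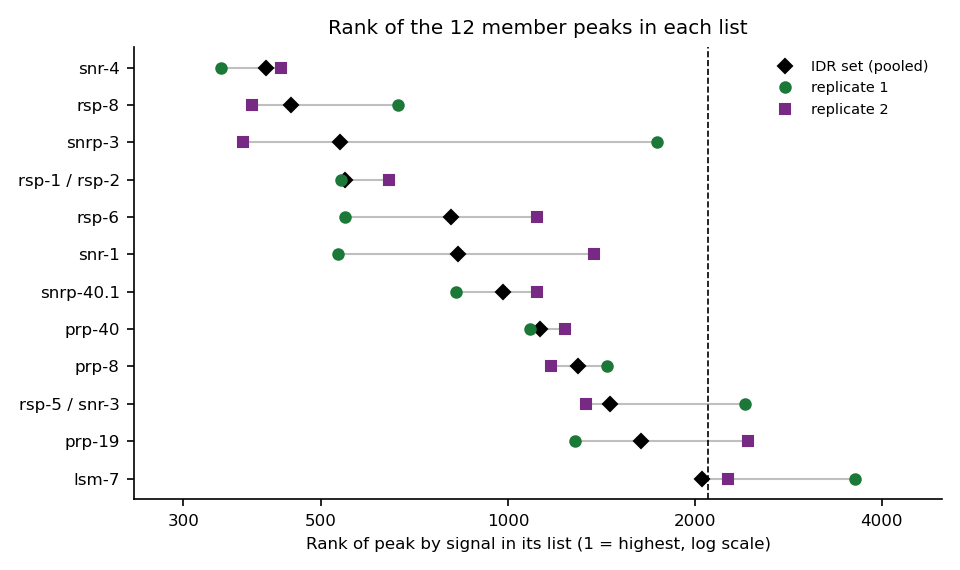
Rank by signal of the 12 member peaks (1 is the highest, log axis) in the IDR set (diamonds), replicate 1 (circles) and replicate 2 (squares); the dashed line marks 2103 peaks. Ranks of the replicates lie close together at prp-40 and rsp-1 with rsp-2, and far apart at snrp-3, where they are 1736 and 374.

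Member peaks were of middle height. Their signal ran from 33.1 to 94.1 with a median of 56.9, against 52.4 for all IDR peaks in promoter windows and a range of 32.5 to 986 in the whole set. Only snr-4 and rsp-8 were among the 500 highest. All 14 summits lay upstream of the member's start, at a median of 217 bp, beside 268.5 bp upstream for all genes with an IDR summit. Of all such gene and peak pairs, 95.4% were upstream. The window reaches 1000 bp upstream but only 200 bp downstream, so it favours upstream summits at members and all genes alike. Within 400 bp upstream lay 85.7% of the member pairs and 63.1% of all pairs. Each of the 12 summits lay outside annotated protein-coding genes, and no member had an IDR summit inside its gene body. No share over all IDR peaks or all genes was set beside these counts, so they do not set the members apart.

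The arrangement of the genes along the chromosome was not used in choosing them by symbol. For 29 of the 55 (52.7%) the nearest upstream protein-coding gene lay within 1000 bp on the opposite strand, a head-to-head arrangement called divergent here, against 17.5% of all protein-coding genes. A same-strand neighbour ended within 500 bp upstream of 16 (29.1%), as in an operon, against 18.1% of all genes. IDR summits lay at 10 of the 29 divergent members (34.5%), 2 of the 16 with a close same-strand neighbour (12.5%) and 2 of the other 10 (20%). Over all genes the shares were 12.6%, 3.49% and 5.75%, highest in the divergent class and lowest in the same-strand class. The arrangement of the members moves with their share of peaks, and its part in that share was not tested.

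Among the peaks, 8 of the 12 member peaks lay in the windows of at least 2 protein-coding genes (66.7%), against 24.5% of all IDR peaks in promoter windows. These shares are not like for like. Member peaks were reached through genes, so a peak in 2 windows had 2 ways to be included, while the 24.5% counts each peak once. The partners at the 8 peaks were other members at 2 and snx-13, F08G12.3, clu-1, bath-42, dnc-1, and K10D2.5 with emb-1 at the rest. When each summit was given only to the nearest start, 9 members kept one, and lsm-7, prp-19, rsp-2, snr-1 and snr-3 lost theirs to the partner. The 4 peaks of snr-4, rsp-8, rsp-6 and snrp-3 lay in the window of no other protein-coding gene.

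Among the 16 members with a close same-strand neighbour, that neighbour had an IDR summit in its own window for 5 (31.2%), against 9.39% of all genes so arranged. They are lsm-5 behind acs-2, lsm-6 behind ubc-3, lsm-8 behind sqd-1, prp-38 behind plrg-1 and rnp-7 behind syf-2. None of these 5 had an IDR summit in its own window. Over all genes so arranged, the neighbour had an IDR summit for 339, and 32 of these 339 genes had one in their own window. With only 5 members, none is near that share and does not set the members apart. The annotation used here does not name operons, so closeness alone stands for them.

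**Figure D4:**
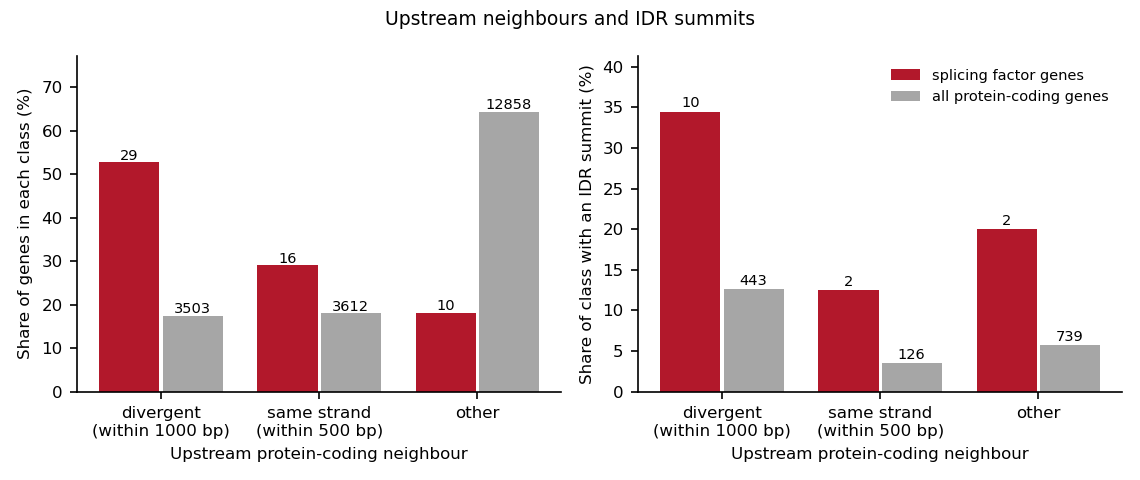
Left, share of splicing factor genes and of all protein-coding genes in each class of upstream neighbour (%); right, share of each class with an IDR summit in the promoter window (%), with gene counts above the bars. Divergent genes make up 52.7% of the members and 17.5% of all genes, and 34.5% and 12.6% of them carry an IDR summit.

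Members were spread over all 6 chromosomes. IDR summits lay at 0 of 10 on I, 4 of 12 on II, 4 of 13 on III, 4 of 11 on IV, 1 of 7 on V and 1 of 2 on X. Of all protein-coding genes on these chromosomes, 6.6%, 5.8%, 9.47%, 6.28%, 4.21% and 9.23% had one. With only 10 members on I, 0 is near the share there. The 4 genes on II are rsp-1 with rsp-2 and rsp-5 with snr-3, each pair at 1 shared peak. The members on I include snr-2, snr-7, lsm-6, prp-31 and rnp-6, and 6 of the 10 had a pooled summit, beside 41.9% of all protein-coding genes.

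A list of 69 genes that act in splicing but carry other symbols had IDR summits at 10 (14.5%), beside 6.55% of all genes. These were 5 of 49 core and associated genes (10.2%) and 5 of 20 regulators (25%). The difference from the 55 was not tested. The list was drawn up by hand and does not hold every such gene, so the shares are of the list alone. The neighbours plrg-1 and sqd-1, each with an IDR summit, are not in it. Of the core list, mog-4, a DEAH-box helicase gene, had a signal of 92.4 with a summit 213 bp upstream, and syf-2 had 67. Peaks lay also at usp-39 (signal 40.7), spk-1, an SR protein kinase gene (34), and rsr-1, an SR-related protein gene (33.6). Of the regulators, asd-1, of the Fox-1 family of RNA-binding proteins, had the highest signal of all splicing genes examined, 151, with its summit 483 bp upstream. The others were hrpa-1 (49.6), hrpk-1 (42.2), ccar-1 (41) and grld-1 (35.9). The peaks of spk-1, rsr-1, syf-2 and grld-1 also lay in the windows of rheb-1, sri-5, K04G7.1 and cox-6C, in that order. With nearest starts only, 7 of the 69 kept a summit, beside 5.08% of all genes. Only the peaks of mog-4, syf-2, asd-1 and hrpa-1 were among the 2103 highest of each replicate. At peaks among the 2103 highest of each replicate the count was 4 of 69, beside 4.57% of all genes, which is near the background share. A pooled summit was present at 53 of these 69 genes (76.8%), beside 41.9% of all genes.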

How the data were processed

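ChIP-seq peaks came from 2 biological replicates of L2 larvae, and the labels give a fragment size of 150 to 350 bp. The 4 lists on ce11 were used: a relaxed list for each replicate (30000 peaks each) and for the pool (28651), and the optimal IDR set (2103). Each was derived from the replicates' alignments and a control, per the deposited notes. The signal of each peak is the authors' own, of unstated scale, and was read only within a list. The deposited −log10 q-value has a ceiling (1510 IDR peaks share it) and was used only as a filter at 2. Peak caller, aligner, IDR threshold and depth: not given in the sources used here. Precision is therefore limited to the spread of 2 replicates. Where 2 annotated starts share a summit, each gene was counted. For members without an IDR summit, each list gave its own highest summit in the window, which need not be the same site.

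Genes came from Ensembl release 115 (WBcel235, ce11) and bases from RefSeq's WBcel235 genome. No peak passed a chromosome end. Lists on ce10 were not used here. The members, role groups and other lists were chosen with earlier results of these data known. Named genes are all members with an IDR summit, the 10 others of highest pooled signal, other splicing genes with an IDR summit, mdl-1 and partners at shared peaks; further members are named to account for each role group, after their values were seen. Of the other splicing symbols 49 of 50 and 20 of 20 matched. Motif searches covered both strands, 50 bp to either side of a summit. No test was run: there is 1 group, and genes are not replicates. Window assignment was tested on simulated data. Alternatives covered window, start, overlap, list length, replicate, motif width and neighbour distance. Tables were made with pandas 2.3.3 and numpy 2.4.6 under Python 3.11.15, rank correlations with scipy 1.17.1, and plots with matplotlib 3.10.9.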

Additional observations from a re-analysis of the deposited data

How the results depend on the processing

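The count of 14 members with an IDR summit was 12 when windows reached 500 bp upstream and 100 bp downstream (5.02% of all genes), 15 when they reached 2000 bp upstream (8.82%), and 12 in the top list of either replicate alone (6.36% and 6.46%). It was 9 with nearest starts only, 8 in the 1000 highest-signal IDR peaks, 2 in the 500 highest and 23 in the 5000 highest pooled peaks, where 5.08%, 3.2%, 1.6% and 13.5% of all protein-coding genes were counted. Without replicate 2 the 12 members shared 11 with the 14 and added lsm-6. The 40 members with a pooled summit became 23 once peaks with a −log10 q-value under 2 were dropped, where 13.3% of all genes were counted. The 10 other splicing genes became 3 in the 1000 highest IDR peaks, 2 in the 500 highest, 23 in the 5000 highest pooled peaks, 4 at peaks in both top lists (beside 4.57% of all genes) and 6 to 10 with 1 replicate left out (beside 6.36% and 6.46%), so that 4 or 6 of 69 is near the share of all genes. GAGAGA was at 1 member peak within 100 bp of the summit, and GGGCGG at 0 in both top lists and 0 to 1 with 1 replicate left out. TGCGTC, chosen after the data were seen, was at 3 of 10 peaks without replicate 1 and 4 of 11 without replicate 2. The median rank of 907 became 826 to 1114 in the replicates alone. With a same-strand distance of 1000 bp, 1 bound member had neither kind of close neighbour. The cause of these changes was not tested, apart from shorter or longer lists holding fewer or more peaks. No paired analysis was possible because both replicates belong to 1 group. Depth is unknown, so a gene without a summit is one not detected in these lists.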
